A study of Arabidopsis thaliana with 4 samples.

Results

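The ERECTA family of Arabidopsis thaliana comprises 3 receptor kinase genes, ER (AT2G26330), ERL1 (AT5G62230) and ERL2 (AT5G07180). They were selected by locus from the 27444 protein-coding nuclear genes of the annotation, each as the TAIR10 gene plus 1000 bases on either side. Of 6303651 distinct nuclear cytosines listed as methylated in at least 1 library of the series, 551 lay in these 3 regions. The assay was enzymatic methyl-seq (EM-seq): enzymes deaminate cytosines that carry no methyl group, and protected, methylated cytosines still read as C. The 2 SNP libraries came from shoot apices that received 0.025% of the wetting agent Silwet with 1 mM sodium nitroprusside (SNP), a donor of nitric oxide, and the 2 mock libraries came from apices that received Silwet alone, both for 24 h and under long days. The labels give Col-0 as the genotype of all 4 libraries, whereas the methods of the study describe apices of ap1/cal mutants, which overproliferate inflorescence and young floral meristems, so the apices are not wild type if the methods apply. The study calls the replicates biological, and the labels do not say how many plants a library holds.

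ERECTA family proteins sit in the plasma membrane and carry leucine-rich repeats outside the cell and a kinase domain inside it. They bind secreted EPF and EPFL peptides together with SERK co-receptors or the receptor-like protein TMM, and signal through the MAP kinase kinase kinase YDA. The 3 members act with overlapping functions in stem and pedicel growth, stomatal patterning and the size and organ initiation of the shoot meristem. Many expressed plant genes carry methylation in the CG context within the transcribed part, which MET1 copies to both strands at replication, while the ends of such genes usually lack it. Methylation in the CHG and CHH contexts, where H is A, C or T, is set by other enzymes, in part through RNA-directed DNA methylation and AGO4, and is typical of transposons.

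The lists held between 3857352 and 4134559 nuclear sites per library, with 42221751 to 50875710 reads at these sites and a median depth of 8 to 10 reads. No list held a site with fewer than 2 methylated reads. The files do not tell cytosines without coverage from covered cytosines that were not called. A "shared site" is therefore a cytosine listed in all 4 libraries. Unless stated otherwise, a level was computed only from shared CG sites whose depth reached 5 reads in each library. ER had 66 such sites, ERL1 had 51 and ERL2 had 54. At the minimum of 10 reads that the study used, 7, 5 and 2 sites were left.

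All 3 genes have 27 exons. ER lies on the minus strand (chr2:11208080-11214662), ERL1 on the plus strand (chr5:24996129-25002439) and ERL2 on the minus strand (chr5:2227439-2233587). Most exons of the leucine-rich repeat part are 72 bases long, which is the length of 18 exons in ER and 19 each in ERL1 and ERL2. Exon 26 encodes part of the kinase domain, is 371 bases long in each gene and held 22 shared CG sites in ER, 24 in ERL1 and 17 in ERL2, so bases 101 to 360 of it are shown for the 3 paralogues. Shorter exons of ER were denser, such as exon 23 with 9 shared sites in 74 bases, and exon 25 of ERL2 held 22 in 339 bases. They were read from the reference genome in transcript direction, and capitals mark CG dinucleotides of which at least 1 cytosine was listed in all 4 libraries.
ER exon 26, chr2:11208819-11209078, minus strand: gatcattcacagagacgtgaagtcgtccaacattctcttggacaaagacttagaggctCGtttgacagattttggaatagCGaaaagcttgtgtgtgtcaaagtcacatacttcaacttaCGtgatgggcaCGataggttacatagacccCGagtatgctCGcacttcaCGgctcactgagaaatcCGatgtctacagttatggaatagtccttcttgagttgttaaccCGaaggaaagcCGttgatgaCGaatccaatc
ERL1 exon 26, chr5:25001455-25001714, plus strand: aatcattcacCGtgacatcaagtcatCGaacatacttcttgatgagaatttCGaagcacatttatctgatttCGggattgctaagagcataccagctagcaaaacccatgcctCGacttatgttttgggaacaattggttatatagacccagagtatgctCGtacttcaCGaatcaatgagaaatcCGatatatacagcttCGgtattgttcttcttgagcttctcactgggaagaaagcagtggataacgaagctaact
ERL2 exon 26, chr5:2228195-2228454, minus strand: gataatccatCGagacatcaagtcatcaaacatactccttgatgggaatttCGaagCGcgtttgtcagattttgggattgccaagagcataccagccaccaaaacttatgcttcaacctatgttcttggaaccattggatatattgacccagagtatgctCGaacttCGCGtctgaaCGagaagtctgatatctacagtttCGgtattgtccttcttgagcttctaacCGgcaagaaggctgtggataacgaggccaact
In this stretch 11 of 13 CG dinucleotides of ER, 9 of 10 of ERL1 and 9 of 11 of ERL2 were methylated in this sense. The capitals fall at mostly different places in the 3 sequences.

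No shared site lay in exon 27. The coding start of exon 27 of ER, also part of the kinase domain, is shown for comparison.
ER exon 27, chr2:11208604-11208723, minus strand: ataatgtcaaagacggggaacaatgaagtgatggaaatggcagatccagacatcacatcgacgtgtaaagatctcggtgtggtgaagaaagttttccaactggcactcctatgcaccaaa
It has 4 CG dinucleotides in 120 bases and none was shared by the 4 libraries. Over the whole of exon 27 with its 3′ UTR, 0 of 44 CG cytosines in ER, 0 of 8 in ERL1 and 0 of 28 in ERL2 were shared sites. Of these cytosines, 18 in ER, 1 in ERL1 and 4 in ERL2 were listed in at least 1 library. In exon 26 the counts of shared sites were 22 of 30, 24 of 26 and 17 of 24, and in exon 25 they were 18 of 20, 7 of 12 and 22 of 24.

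The 5′ part of each gene likewise had no shared CG site. Exons 1 to 7 held 40, 34 and 34 CG cytosines in ER, ERL1 and ERL2, and 0 of them were shared. The first shared site lay 2202 bases from the annotated start in ER (intron 7), 2966 bases in ERL1 (intron 13) and 2159 bases in ERL2 (intron 9). The 100, 152 and 118 CG cytosines of the regions that lie before these sites, among them 56, 72 and 62 of the upstream kilobase, were in no case shared. The last shared site within the gene lay 5835, 5654 and 5363 bases from the start. All 3 members thus had a block of CG methylation in the middle and 3′ part of the coding sequence, with both gene ends outside it.

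**Figure D1:**
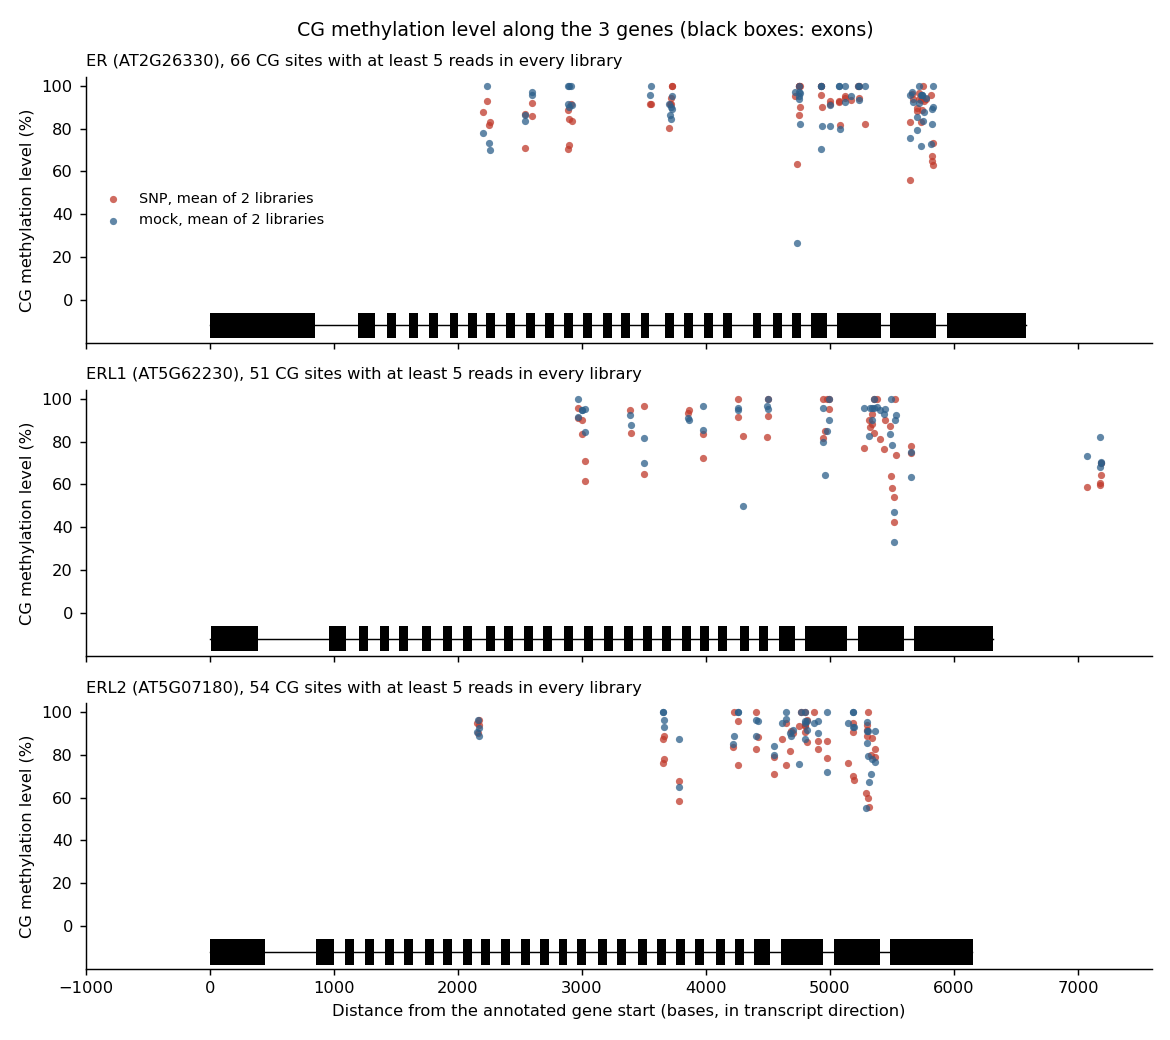
CG methylation level (%) of each tested shared site (5 or more reads per library), as the mean of 2 SNP libraries (red) and of 2 mock libraries (blue), against the distance from the annotated gene start in bases, with exons as black boxes. The sites of ER begin at 2202 bases, those of ERL1 at 2966 and those of ERL2 at 2159, and none lies in exon 27, while the 5 sites to the right of ERL1 belong to the neighbouring gene AT5G62240.

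The paralogues differed in how far the block reached into the leucine-rich repeat exons. In exons 8 to 20, 18 of 28 CG cytosines of ER were shared sites (64.3%), against 12 of 42 in ERL1 (28.6%) and 6 of 28 in ERL2 (21.4%). In exons 21 to 27 the shares were closer, with 53 of 110 in ER (48.2%), 36 of 58 in ERL1 (62.1%) and 45 of 88 in ERL2 (51.1%). ER had shared exonic sites from exon 8 on (4 of 4 CG cytosines), ERL1 from exon 14 (2 of 2) and ERL2, apart from intron 9, from exon 19 (4 of 4). These counts describe single genes and were not tested.

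**Figure D2:**
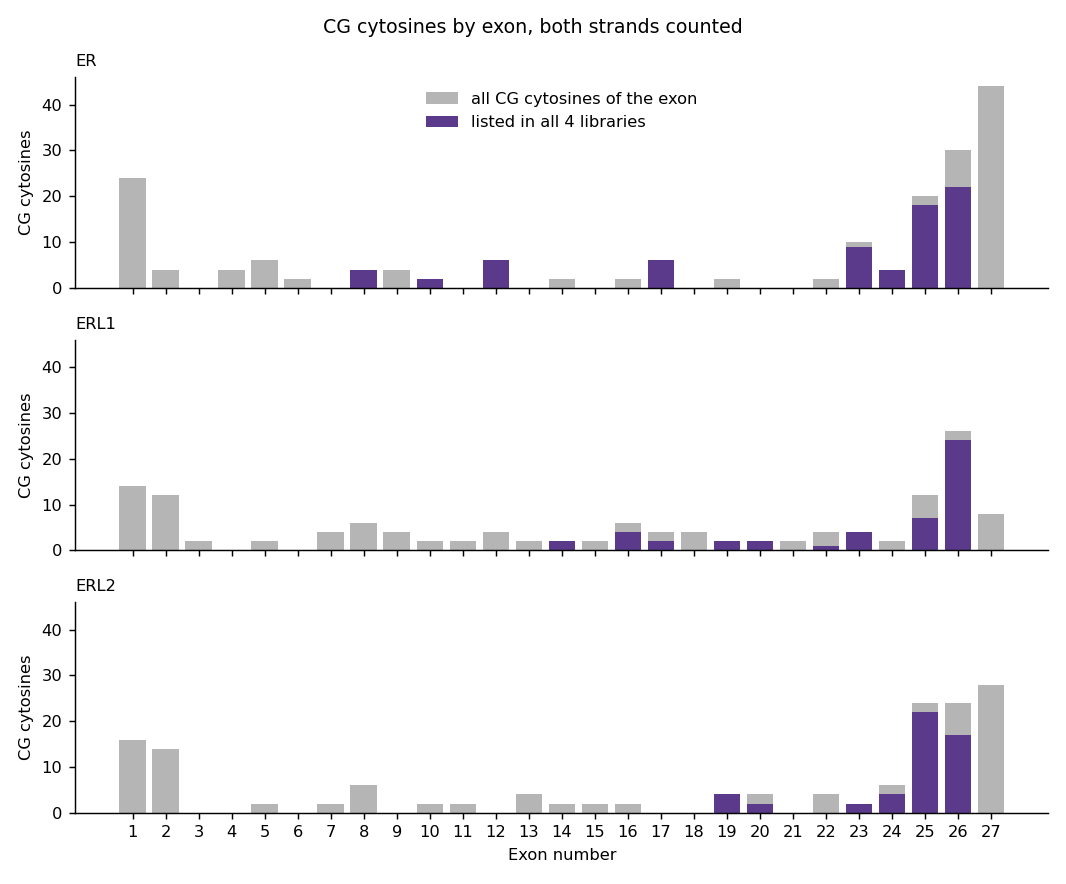
Number of CG cytosines per exon, both strands counted (grey), and of those listed in all 4 libraries (purple), by exon number in the 3 genes. Exons 25 and 26 are largely filled in ER, with 18 of 20 and 22 of 30, whereas exons 1 to 7 and exon 27 hold grey bars only.

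The share of CG cytosines that were shared sites was higher in exons than in introns in each gene. Of the exonic CG cytosines, 39.9% in ER, 35.8% in ERL1 and 34.0% in ERL2 were shared sites, against 25.2% of exonic CG cytosines over all 27444 genes. The intronic shares were 33.3% (8 of 24), 18.2% (8 of 44) and 22.7% (10 of 44), against 20.2% over all genes. For the whole regions, 79 of 293 CG cytosines of ER (27.0%), 62 of 290 of ERL1 (21.4%) and 61 of 310 of ERL2 (19.7%) were shared. Of those of ERL1, 6 lay downstream within AT5G62240, a gene on the opposite strand that overlaps the end of ERL1 by 82 bases.

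The members share little of their CG positions. Over exons of equal length, ERL2 and ERL1 were identical at 83.2% of 2415 bases (24 exons), ERL1 and ER at 66.0% of 1875 bases (21 exons), and ERL2 and ER at 67.1% of 1949 bases (22 exons). Exon 24 of ER has the same length but only 29.5% of its bases in common with ERL1 and 31.0% with ERL2, so it could not be aligned without gaps and was left out of these pairs, a choice made after its identity was seen. It held 0 CG dinucleotides at the same place in either pair. As above, methylated means that at least 1 cytosine was listed in all 4 libraries. A CG dinucleotide listed only in some libraries therefore counts as not methylated here. ERL2 and ERL1 had 18 CG dinucleotides in common, and 10 of them were methylated in both genes, 7 in neither and 1 in ERL1 alone. ERL1 and ER had 8 in common, of which 3 were methylated in both and 5 in ER alone. ERL2 and ER also had 8 in common, of which 3 were methylated in both, 3 in ER alone and 2 in neither. No CG dinucleotide in common with ER was methylated in ERL1 or ERL2 and not in ER. By this count the ERL genes had methylation at part of the positions that carried it in ER. The positions that differed lay in exons 8 to 12 and at bases 159 and 350 of exon 26. Of these, base 64 of exon 12 in ERL1 and bases 159 and 350 of exon 26 in ERL2 were listed in some libraries. In the ERL pair this held for ERL2 at base 65 of exon 2, base 47 of exon 16 and base 350 of exon 26. It also held for ERL1 at base 59 of exon 13.

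Most methylated CG dinucleotides of 1 gene had another dinucleotide at the same place in its paralogue. Between ERL2 and ERL1 there were 28 methylated CG dinucleotides found in only 1 of the pair, and the other gene had TG or CA in 20 of them (71.4%), which are the products of a C-to-T change on either strand. For CG dinucleotides with no listed cytosine, this held for 19 of 31 (61.3%). Against ER the shares were 15 of 29 (51.7%) and 10 of 30 (33.3%) for ERL1, and 16 of 29 (55.2%) and 12 of 26 (46.2%) for ERL2, methylated ones first. The ancestral base is not known from these files, and the shares were not tested.

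Exon 26 contained 3 CG dinucleotides present in all 3 genes, and at bases 261 and 270 all 3 were methylated. At base 261, ER had 23 of 25 and 20 of 21 methylated reads in the SNP libraries, against 21 of 23 and 16 of 16 in the mock libraries. ERL1 had 18 of 20 and 15 of 17 in SNP, against 13 of 15 and 8 of 9 in mock. ERL2, where only 1 of the 2 cytosines was listed in all 4 libraries, had 10 of 24 and 7 of 16 in SNP, against 8 of 21 and 4 of 8 in mock. The position was therefore between 86.7% and 100% methylated in ER and ERL1 and between 38.1% and 50.0% in ERL2, with no overlap between ERL2 and the others in any library. At base 287 the CG dinucleotide is found in ER and ERL1, and there ERL1 had the low values, with 7 of 21 and 13 of 20 methylated reads in SNP against 5 of 15 and 8 of 18 in mock. ER had 20 of 21 and 16 of 16 in SNP, against 16 of 18 and 20 of 20 in mock. Both positions were chosen for description after their values were seen. Their reads were summed over both cytosines wherever these were listed, without a minimum depth.

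The tested sites had median levels between 83.3% and 94.1% in each library. Sites with low levels are less likely to be listed in all 4 libraries, so the selection itself favours high levels. The median level of single sites in ER was 90.5% and 93.3% in the SNP libraries, against 94.1% and 93.3% in the mock libraries. It was 84.6% and 87.5% against 91.7% and 90.0% in ERL1, and 83.3% and 90.5% against 92.0% and 92.3% in ERL2. With the reads of all 4 libraries summed, 1 of 66 sites in ER, 9 of 51 in ERL1 and 3 of 54 in ERL2 had a level under 70%. Intermediate sites were thus most frequent in the region of ERL1, where 5 of the 9 lay within the gene and the others in AT5G62240.

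ER had on average the highest weighted level (methylated reads over all reads) of the members. ERL1 was below ER in 4 of 4 libraries, with differences of -6.21 and -5.49 percentage points in SNP, against -5.28 and -1.96 in mock, a mean difference of -4.74 points (SD 1.89, n = 4; exact two-sided sign-flip permutation test, p = 0.125, the smallest this test can give). Without the flanks, and thus without AT5G62240, the difference was -2.90 points. ERL2 differed from ER by -6.82 and -1.73 points in SNP, against 0.05 and 0.30 points in mock (mean -2.05, SD 3.31; exact permutation p = 0.5). ERL2 was above ERL1 in 3 of 4 libraries and below it in SNP 1, by 2.69 points on average (exact permutation p = 0.25), and the mean was 0.85 points for the genes alone. The values without flanks are an alternative chosen after the data were seen. At the minimum of 10 reads the order of ER and ERL1 turned round, with ERL1 6.09 points above ER over 5 and 7 sites. None of the 3 tests could reach a p of 0.05 with 4 libraries.

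Levels in SNP libraries were set against mock libraries to ask whether nitric oxide signaling alters methylation at these genes. ER had a CG level of 87.6% and 89.0% in SNP, against 91.2% and 88.5% in mock. ERL1 had 81.4% and 83.5% in SNP, against 85.9% and 86.6% in mock, and ERL2 had 80.8% and 87.3% in SNP, against 91.2% and 88.8% in mock. Both SNP libraries lay below both mock libraries in ERL1 and ERL2, whereas in ER the groups overlapped. Over all 18688 gene regions with at least 5 tested sites, 43.3% had both SNP libraries below both mock libraries.

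None of the members passed the test across gene regions. The study names ERL1 and ERL2 among stem cell-related genes whose DNA methylation fell substantially after SNP, judged by total methylation at the loci. The test here used CG levels at shared sites only, which is another measure. In the quasi-likelihood test of edgeR on methylated and unmethylated reads, 610 of 18688 regions (3.26%) had an adjusted p under 0.05, of which 603 (3.23%) were lower in SNP. The difference was -1.57 percentage points in ER (replicate SD 1.50; log2 odds ratio -0.25; edgeR adjusted p = 0.629), -3.80 points in ERL1 (SD 1.13; log2 odds ratio -0.42; edgeR adjusted p = 0.399) and -6.02 points in ERL2 (SD 3.47; log2 odds ratio -0.78; edgeR adjusted p = 0.115, unadjusted 0.0086). The median difference of all regions was -2.55 points, with quartiles at -5.53 and -0.16 points, so ERL2 lay below the lower quartile while ER and ERL1 lay between the quartiles. Library SNP 1 set much of the ERL2 value: without it the log2 odds ratio was -0.41 (edgeR adjusted p = 0.668), and without SNP 2 it was -1.12 (edgeR adjusted p = 0.0558). The log2 odds ratio of ER was -0.04 without mock 1 and -0.46 without mock 2, so its size also rested on single libraries.

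**Figure D3:**
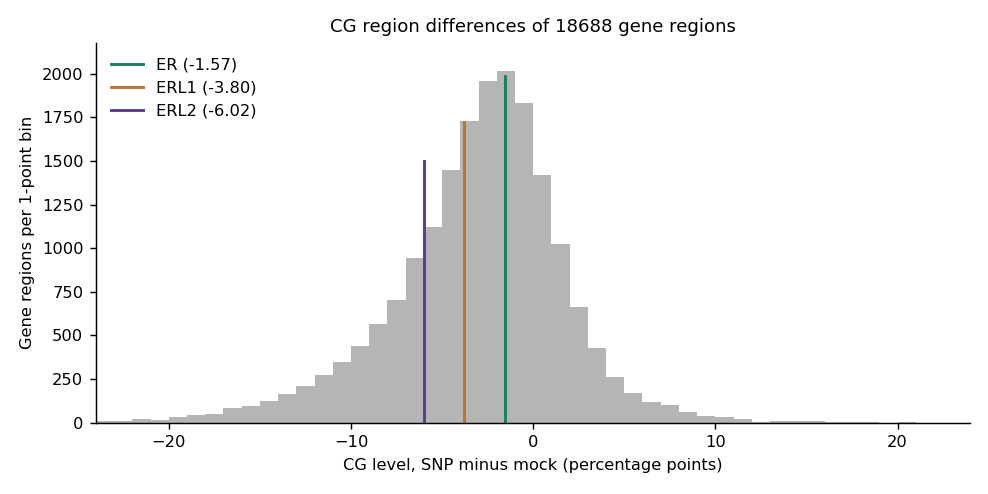
Number of gene regions per bin of 1 percentage point of the CG level difference, SNP minus mock, over 18688 regions, with the 3 members as lines. ER at -1.57 and ERL1 at -3.80 lie within the bulk of the distribution around its median of -2.55, and ERL2 at -6.02 lies on its lower side.

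Whether the difference between SNP and mock was itself unequal between members was tested within libraries. Set against ER it was -4.45 points in ERL2 (exact permutation p = 0.333) and -2.23 points in ERL1 (exact permutation p = 0.333), and in ERL2 against ERL1 it was -2.22 points (exact permutation p = 0.667). With 2 SNP and 2 mock libraries 0.333 is the smallest p this test can give, so the comparison cannot pass 0.05.

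The difference was also computed by part of the gene. In coding exons ER had 87.4% and 89.8% in SNP, against 90.9% and 89.4% in mock, a difference of -1.57 points (SD 1.41). Coding exons of ERL1 had 81.3% and 86.8% in SNP, against 88.0% and 86.9% in mock (-3.39 points, SD 2.78), and those of ERL2 had 79.9% and 86.7% in SNP, against 92.1% and 89.1% in mock (-7.27 points, SD 3.72). Introns differed by 0.22, -0.98 and -0.67 points in ER, ERL1 and ERL2, with groups that overlapped in all 3 genes. Single introns could nevertheless have both SNP libraries below both mock libraries. This held for intron 13 of ERL1 (-5.09 points, 4 sites) and intron 24 of ERL2 (-8.19 points, 2 sites). Intron 24 of ER had the reverse order, with 88.0% and 95.5% in SNP, against 87.5% and 81.25% in mock (7.35 points, 2 sites). In the remaining introns with tested sites the groups overlapped. The downstream flank of ERL1, within AT5G62240, had 67.4% and 57.4% in SNP, against 72.5% and 73.2% in mock (-10.4 points, 5 sites), and the gene of ERL1 without flanks differed by -3.04 points. The introns rest on 7, 8 and 10 sites in all, and intron and exon differences were not tested against each other.

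**Figure D4:**
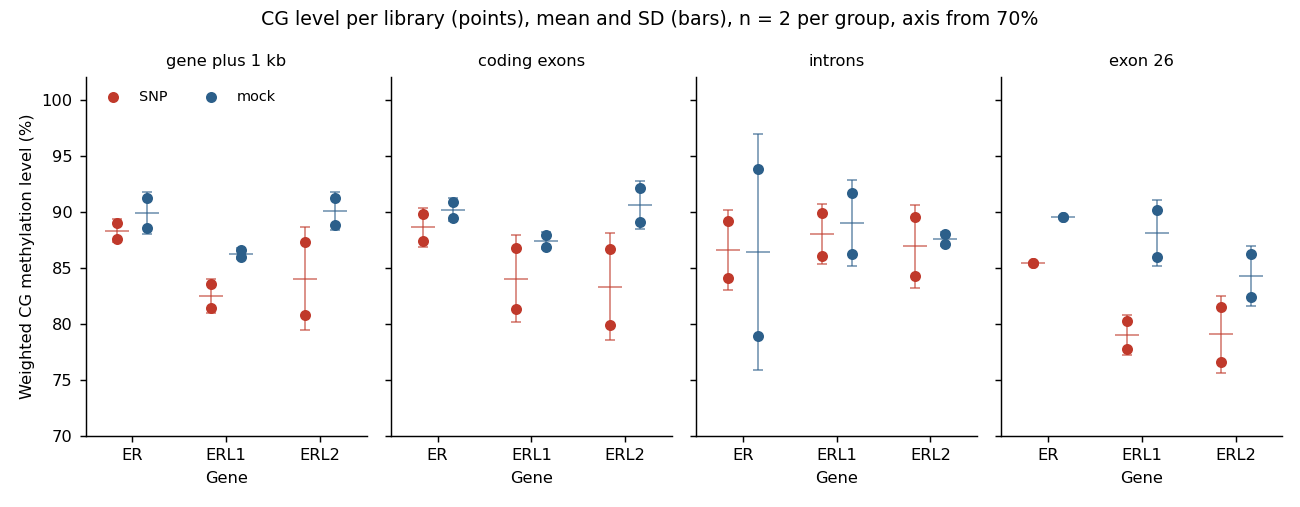
Weighted CG level (%, axis from 70%) per library in the whole region, the coding exons, the introns and exon 26 of the 3 genes, with SNP (red) left of mock (blue) and the mean and SD of 2 libraries as bars. In exon 26 both SNP libraries lie below both mock libraries in each gene, from 85.4% against 89.5% on average in ER to 79.0% against 88.1% in ERL1.

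Exon 26 had a lower level in both SNP libraries than in both mock libraries in all 3 genes. Its level in ER was 85.4% and 85.4% in SNP, against 89.6% and 89.5% in mock (20 sites). ERL1 had 77.7% and 80.3% in SNP, against 90.2% and 86.0% in mock (18 sites), and ERL2 had 76.6% and 81.5% in SNP, against 86.2% and 82.4% in mock (16 sites). The groups did not overlap, with differences of -4.10, -9.08 and -5.25 points, and an exact permutation test of 2 against 2 libraries cannot give a p below 0.333. This exon was singled out after the values were seen, and the 3 values come from the same 4 libraries, so they are no independent repeats. Over all gene regions 43.3% had this order, and no such share was computed over exons. Exons 10, 12 and 25 of ER, 14, 20 and 23 of ERL1 and 19, 23 and 24 of ERL2 also had it. The opposite order was found in exon 23 of ER and exons 22 and 25 of ERL1. In the remaining exons with tested sites the groups overlapped. These were exons 8, 17 and 24 of ER, 16, 17 and 19 of ERL1 and 20 and 25 of ERL2.

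Exons with higher levels in SNP were also found. Exon 23 of ER had 89.3% and 93.4% in SNP, against 83.5% and 85.7% in mock (8 sites). This order rested on 1 site, described with its dinucleotide further on: the other 7 sites, an alternative chosen after the data were seen, had 93.8% and 98.1% in SNP, against 95.3% and 93.7% in mock, and the groups overlapped. Exon 25 of ERL1 had 91.3% and 98.2% in SNP, against 87.0% and 85.3% in mock (6 sites). Conversely, exon 12 of ER had 78.1% and 87.7% in SNP, against 96.4% and 92.2% in mock (6 sites). Exon 19 of ERL2, a repeat exon with 2 CG dinucleotides, had 82.1% and 80.6% in SNP, against 97.8% and 98.1% in mock (4 sites), the largest gap among exons with at least 4 tested sites. The exon is shown with its paralogues, since the CG dinucleotide at base 56 is methylated in both ERL genes and absent in ER. The only CG of ER lies at base 40 and held no shared site. Its minus-strand cytosine was listed in both SNP libraries, with 3 of 11 and 2 of 11 methylated reads, and in neither mock library.
ER exon 19, chr2:11210608-11210679, minus strand: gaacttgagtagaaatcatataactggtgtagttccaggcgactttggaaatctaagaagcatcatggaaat
ERL1 exon 19, chr5:24999933-25000004, plus strand: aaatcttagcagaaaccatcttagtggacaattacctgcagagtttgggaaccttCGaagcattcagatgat
ERL2 exon 19, chr5:2229909-2229980, minus strand: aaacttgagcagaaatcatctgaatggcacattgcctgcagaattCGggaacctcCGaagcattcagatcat
In ERL1 this exon had 92.0% and 95.5% in SNP, against 81.5% and 100% in mock, so the paralogue with the same CG did not have the same order.

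No single CG site of the 3 genes passed the test. Fisher's exact test on the pooled reads of each treatment, with non-overlapping groups and Benjamini-Hochberg adjustment, called 139 of 1050094 CG sites of the genome (0.0132%) and 0 of the 171 sites of the members. At an unadjusted p under 0.05, 6 of 171 sites met the criteria (5 lower and 1 higher in SNP), against 3.56% of all sites, and edgeR applied per site gave 0 members after adjustment, against 0.000952% of all sites, and 4 of 171 before it, against 0.919%. Both SNP libraries lay below both mock libraries at 7 of 66 sites in ER, 9 of 51 in ERL1 and 11 of 54 in ERL2, against 13.1% of all sites. They lay above at 4, 3 and 1 sites, against 8.97% of all sites.

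Among sites with non-overlapping groups, many of those with the largest differences lay in exon 26. That exon also held 20 of the 66 tested sites of ER, 18 of 51 of ERL1 and 16 of 54 of ERL2. Whether it held more of the large differences than this share was not tested. In ER, the site at chr2:11209019 (plus strand) had 6 of 15 and 5 of 7 methylated reads in SNP, against 14 of 14 and 10 of 11 in mock, a difference of -39.7 points (Fisher's exact test, adjusted p = 0.469). The site at chr2:11208828 (plus strand), near the 3′ end of the exon, had 8 of 10 and 5 of 11 in SNP, against 5 of 5 and 15 of 15 in mock (-37.3 points, Fisher's exact test, adjusted p = 0.777). On this strand mock reads were nearly all methylated at both positions. On the minus strand, chr2:11209020 had 14 of 17 and 5 of 6 in SNP. In mock it had 18 of 20 and 8 of 13. There chr2:11208829 had 6 of 11 and 11 of 12 in SNP, and 7 of 7 and 8 of 10 in mock. The groups overlapped at both minus-strand cytosines. With both strands summed, the groups overlapped at chr2:11209019 (-14.8 points) and did not at chr2:11208828 (-27.9 points).

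In ERL1 the site at chr5:25001624 (plus strand, exon 26) had 7 of 11 and 9 of 14 methylated reads in SNP, against 6 of 6 and 5 of 5 in mock (-36.0 points). This is base 270 of the exon, one of the CG dinucleotides that are methylated in all 3 genes. In ERL2 the same base, chr5:2228284, had 10 of 16 and 4 of 7 in SNP, against 9 of 11 and 5 of 5 in mock (-31.1 points) and was the site of ERL2 with the largest difference. With both strands summed, base 270 was at 65.0% and 60.0% in SNP against 100% and 75.0% in mock in ERL1, and at 72.7% and 73.3% in SNP against 81.8% and 100% in mock in ERL2. In ER it was at 100% and 89.5% in SNP, against 91.7% and 83.3% in mock, and the groups overlapped.

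The other sites of this kind were 2 more each in ERL1 and ERL2. The site at chr5:24999153 of ERL1 (exon 14, minus strand) had 3 of 7 and 4 of 5 methylated reads in SNP, against 7 of 7 and 10 of 11 in mock, and the site at chr5:25000426 (exon 22, plus strand) had the opposite order, with 6 of 8 and 9 of 10 in SNP against 4 of 10 and 9 of 15 in mock. In ERL2 the site at chr5:2228397 (exon 26, plus strand) had 9 of 16 and 4 of 5 in SNP against 9 of 9 and 6 of 7 in mock, and the site at chr5:2229935 (exon 19, minus strand) had 10 of 12 and 9 of 13 in SNP against 9 of 9 and 15 of 15 in mock. The adjusted p of Fisher's exact test was 1 for each of the ERL1 and ERL2 sites, and depths of 5 to 16 reads per library allow only large differences to be seen.

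One CG dinucleotide of ER stood apart from its neighbours. It lies at chr2:11209926-11209927 in exon 23, whose 74 bases are shown with those of ERL2, which has only the CG at base 25.
ER exon 23, chr2:11209898-11209971, minus strand: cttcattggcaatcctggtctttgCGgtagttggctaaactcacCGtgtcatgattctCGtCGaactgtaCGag
ERL2 exon 23, chr5:2229283-2229356, minus strand: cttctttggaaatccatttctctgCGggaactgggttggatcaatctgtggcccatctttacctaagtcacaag
On the minus strand the site had 6 of 10 and 6 of 9 methylated reads in SNP, against 4 of 20 and 4 of 12 in mock (36.7 points, Fisher's exact test, adjusted p = 0.941). On the plus strand it had 6 of 11 and 5 of 7 in SNP and 3 of 9 in mock 2, and it was not listed in mock 1. The other 4 CG dinucleotides of the exon had between 72.7 and 100% methylated reads at every cytosine in every library, without a minimum depth. A partly methylated position thus sat among methylated ones. The site was the only one of ER among its 3 largest differences that was higher in SNP.

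When the cytosines of both strands were summed, so that each CG dinucleotide with both cytosines tested (a dyad) gave 1 value, the ERL genes leaned to lower levels. Both SNP libraries lay below both mock libraries at 10 of 18 dyads in ERL1 and 9 of 23 in ERL2, against 19.6% of 370266 dyads of the genome, and above them at 0 of 18 and 0 of 23, against 12.7%. Of the 18 dyads of ERL1, 2 lay downstream in AT5G62240 and 1 of these was among the lower ones, which leaves 9 of 16 within ERL1. In ER the counts were 4 lower and 4 higher of 27. No dyad of the members passed Fisher's exact test after adjustment, against 0.22% of all dyads. The ERL2 dyad at chr5:2229934-2229935 had 18 of 21 and 15 of 20 methylated reads in SNP, against 24 of 24 and 26 of 26 in mock, with the smallest adjusted p of the members (Fisher's exact test, adjusted p = 0.14). Neighbouring dyads share reads and the counts were therefore not tested.

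**Figure D5:**
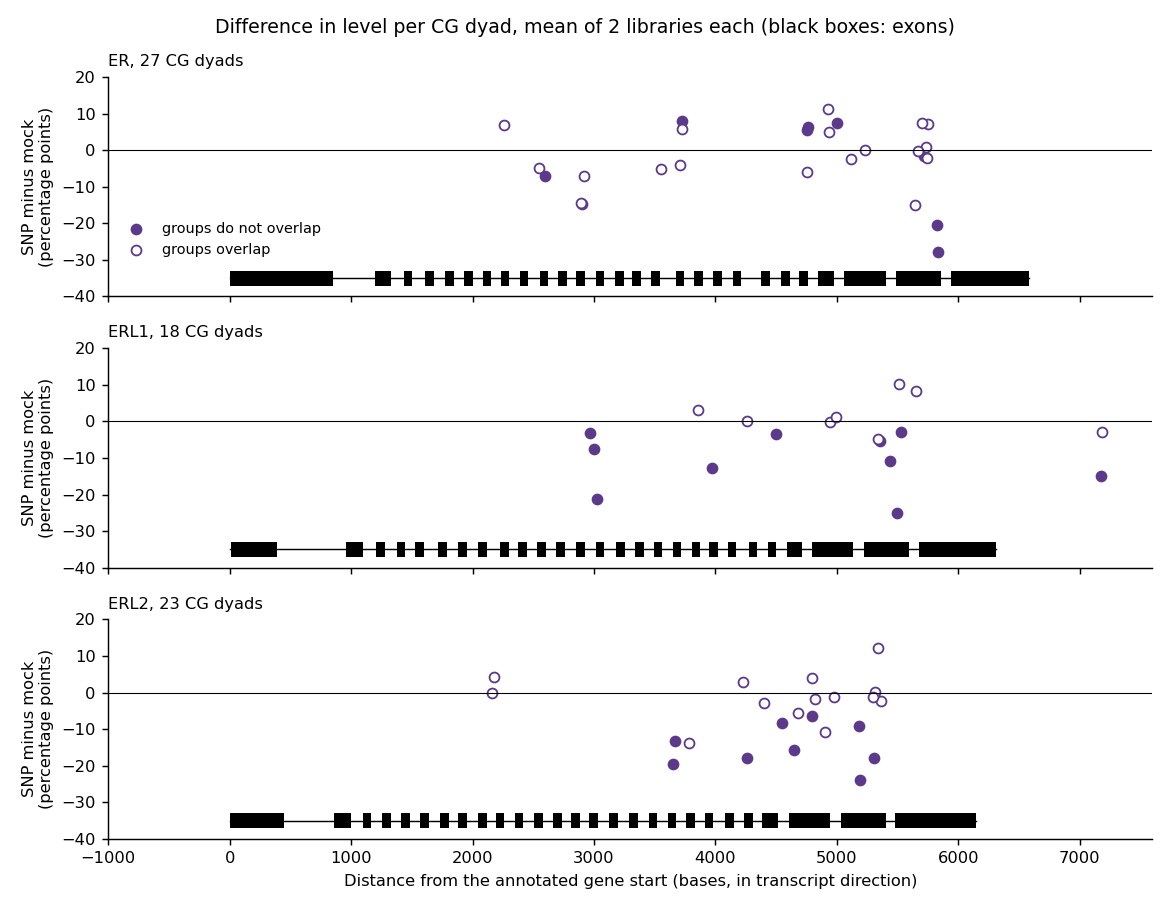
Difference in level per CG dyad, SNP minus mock in percentage points, against the distance from the annotated gene start, with filled points where the 2 SNP and the 2 mock libraries do not overlap. In the region of ERL1 10 of 18 points, 1 of them in AT5G62240, and in ERL2 9 of 23 points are filled and all of these lie below 0, whereas in ER 4 filled points lie below and 4 above.

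More CG sites were listed in SNP than in mock libraries in ER and ERL1, and in ERL2 the groups met at 69, although levels at shared sites were not higher. ER had 95 and 94 listed CG sites in SNP, against 83 and 87 in mock. ERL1 had 78 and 80 in SNP, against 71 and 75 in mock, and ERL2 had 74 and 69 in SNP, against 69 and 67 in mock. With at least 10 reads the counts were 71 and 35 against 61 and 47 in ER, 50 and 29 against 51 and 40 in ERL1, and 41 and 33 against 45 and 29 in ERL2, so that SNP libraries were no longer above mock libraries. With at least 5 reads ERL2 had 73 and 69 in SNP, against 67 and 63 in mock, and within the gene alone it had 72 and 69 in SNP, against 66 and 65 in mock, so the groups did not meet under these settings. Over the whole genome, 1710916 and 1675314 CG sites were listed in SNP, against 1684749 and 1689849 in mock. Sites listed in both SNP and in neither mock library numbered 3 in ER, 2 in ERL1 and 1 in ERL2 (1.01% of the CG sites listed in gene regions), and none was listed in both mock and neither SNP library (0.577%).

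CHG and CHH sites were not shared between libraries at these genes. Of 457, 487 and 541 CHG and 2271, 2232 and 2229 CHH cytosines in the regions of ER, ERL1 and ERL2, 0 were listed in 3 or 4 libraries. Listed in 2 libraries were 3 CHH sites of ER, 3 CHG sites of ERL1 and 2 CHH sites of ERL2. Between 76.5 and 80.0% of the CHG entries and between 87.7 and 91.0% of the CHH entries had exactly 2 methylated reads, the fewest a list holds, against 5.29 to 8.60% of the CG entries. The number of listed CHH sites in ER was 6 and 20 in SNP, against 6 and 27 in mock. It was 25 and 23 in SNP, against 9 and 16 in mock, in the region of ERL1, and 19 and 10 in SNP, against 23 and 26 in mock, in ERL2, so that the groups overlapped in ER and lay apart in opposite directions in the ERL genes. Within the gene alone ERL1 had 9 and 14 in SNP, against 9 and 8 in mock, and ERL2 had 13 and 10 in SNP, against 16 and 15 in mock. Stable methylation of the family was thus limited to CG among the sites that these lists hold.

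Genes of the ERECTA signaling pathway were examined in the same test. The list had 34 loci, of which 27 carried the same symbol in the reference and 14 had at least 5 tested sites. None of the 14 passed, against 3.26% of all regions, and their median difference was -2.55 points, the same as that of all regions. No ligand could be tested (0 of 6), whereas 4 of 5 co-receptors, 7 of 9 kinases of the cascade, 1 of 2 partners and 2 of 5 stomatal transcription factors were. At an unadjusted edgeR p under 0.05 were 5 of the 14, against 19.2% of all regions.

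The largest differences among them were found in genes with few sites. MKK7, a MAP kinase kinase, had 96.9% and 93.7% in SNP, against 80.3% and 77.8% in mock (16.2 points, 6 sites, edgeR adjusted p = 0.0706). MPK3, a MAP kinase at the end of the cascade, had 54.1% and 61.3% in SNP, against 82.0% and 64.8% in mock (-15.7 points, 10 sites, edgeR adjusted p = 0.196). ICE1, a partner of the stomatal factors SPCH, MUTE and FAMA, had 69.9% and 73.3% in SNP, against 83.5% and 83.6% in mock (-11.9 points, 13 sites, edgeR adjusted p = 0.219), and AGB1, the G protein beta subunit, had 83.4% and 78.8% in SNP, against 88.2% and 94.2% in mock (-10.1 points, 17 sites, edgeR adjusted p = 0.154). In each of the 4 genes the SNP and mock libraries did not overlap, and these genes were picked for their large differences. Of the 14 tested genes, 6 had both SNP libraries below both mock libraries and 2 had them above. Over all regions these shares were 43.3% and 6.65%.

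The pathway genes most like each member were found by the Euclidean distance between CG levels in the 4 libraries. Closest to ER was the co-receptor SERK2, with 87.2% and 89.8% in SNP, against 91.0% and 88.5% in mock, at a distance of 0.868 points, followed by the kinases BSK1 (3.40) and BSK2 (4.21). Closest to ERL1 were MPK6 (6.54), SERK1 (6.88) and BSK1 (7.48), and closest to ERL2 were BSK1 (4.55), SERK2 (6.88) and SERK1 (9.97). With 4 libraries such distances describe a similar level rather than a similar response.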

How the data were processed

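EM-seq was analysed in 2 SNP and 2 mock libraries, grouped by their titles. Per library the authors deposited called sites obtained with the methylation extractor of Bismark, in which the level is a fraction and the depth a count of reads. FastQC and TAIR10 are named in the submitters' processing notes, and the aligner is not given in the sources used here. Level times depth gave the methylated reads. Listed nuclear positions fell on a cytosine of the reference assembly (100%), whose RefSeq gene models and bases were used. Reads were summed per gene plus 1000 bases over shared CG sites of depth 5 or more in each library, for regions with at least 5 such sites, and tested with edgeR 4.0.16 (limma 3.58.1, R 4.3.3) with 1 term per library, no replicate block and Benjamini-Hochberg adjustment over 18688 regions at a threshold of 0.05. A read that covers several sites was counted at each. Single CG sites were tested with Fisher's exact test on pooled reads, and levels per library with exact two-sided permutation tests (python 3.11.15, numpy 2.4.6, pandas 2.3.3, scipy 1.17.1, matplotlib 3.10.9). The edgeR region test and Fisher's exact test on sites were also run on simulated data, and the permutation tests were not. Exons of equal length were compared base by base without gaps, leaving out exon 24 of ER. Named were the 3 members, of the pathway genes those past the threshold, the 4 with the largest differences and the 3 most like each member, and per member the 3 CG sites with the largest difference among those with non-overlapping groups. Pathway loci whose symbol differs in the reference were left out. The members and lists were chosen with earlier results of these data known. Alternatives were a minimum depth of 10 reads, all shared sites, all contexts, the gene alone, no minimum number of sites, a replicate block, pooled reads, dyads, mean site levels and leaving out each library. P-values of edgeR and of the permutation tests measure the spread between these libraries. Those of Fisher's exact test on pooled reads ignore it.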

Additional observations from a re-analysis of the deposited data

How the results depend on the processing

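None of the 3 members changed the sign of its log2 odds ratio under any alternative run, and ERL2 passed the threshold only with Fisher's exact test on pooled reads, which ignores the replicate spread (log2 odds ratio -0.81, adjusted p = 0.000292, with 5146 regions called in all). Its other adjusted p values from edgeR ranged from 0.0558 to 0.668. Leaving out 1 library gave log2 odds ratios of -0.46 to -0.04 in ER, -0.52 to -0.31 in ERL1 and -1.12 to -0.41 in ERL2. ERL2 kept 2 sites with at least 10 reads, too few for the region test. The deviations of same-numbered libraries had a correlation of 0.0144 over 18688 regions. With 2 libraries per group this cannot decide whether libraries of the same number were handled together. With the replicate block the log2 odds ratios were -0.25, -0.42 and -0.78 in ER, ERL1 and ERL2. The block changed no call of the members, while 786 regions were called in all, against 610 without it. The number of called regions (610) was 2 of 6602 at a minimum of 10 reads, 1012 with all shared sites, 322 with all contexts and 186 to 652 without 1 library (186 without SNP 1, 373 without SNP 2 and 281 without mock 1). No site of the members passed in any alternative with adjustment, and without adjustment 6 (Fisher) and 4 (edgeR, added after the data were seen) did.

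At a minimum of 10 reads, which leaves few sites, the coding exon difference was 2.23 points in ER and -25.0 points in ERL2, and the level difference was 6.09 points between ERL1 and ER and -5.40 points between ERL2 and ERL1. Without 1 library the coding exon differences ranged from -2.79 to -0.36 points in ER, -6.12 to -0.67 in ERL1 and -10.7 to -3.88 in ERL2, and the coding exons of ERL1 differed by -0.67 points without SNP 1. The surplus of listed CG sites in SNP over mock libraries was 9.5 in ER, 6 in ERL1 and 3.5 in ERL2, against 7, 5 and 6 with at least 5 reads and -1, -6 and 0 with at least 10 reads. Causes of these shifts were not tested.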
